A study of Mus musculus with 6 samples.

Results

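The Hippo pathway co-activators YAP and TAZ, the TEAD factors that carry them to DNA, and 4 of their target genes were followed in sorted fetal liver mesenchyme. The 10 genes were taken by name, and all 10 matched 1 identifier each among the 54532 genes of the deposited table. There were 6 regulators, which are Yap1 (encoding YAP), Wwtr1 (encoding TAZ), Tead1, Tead2, Tead3 and Tead4, and 4 target genes, which are Ccn1, Ccn2, Amotl2 and Lats2. The samples were eYFP-positive cells sorted from livers of CD-1 mice of genotype Sm22-Cre/ROSA26RYFP, 3 libraries from embryonic day 16 (E16) and 3 from day 18 (E18). Each day's libraries are lettered A, B and C, and values are given in that order. Both groups carried the same alleles and no other treatment is labelled. The Sm22 promoter, which drives Cre in smooth muscle and related cells, sets which cells become eYFP-positive, and cells keep the mark even if Sm22 is later switched off. The labels do not say if libraries of one day are separate animals, so the spread behind the p-values may be technical.

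YAP and TAZ are related proteins that enter the nucleus when the kinases MST and LATS are inactive, for example in spread or stretched cells. They have no DNA-binding domain of their own and act through TEAD factors. In the liver the pathway is known for the control of organ size, and in mesenchymal cells YAP and TAZ are linked to matrix production. Ccn1 and Ccn2 encode secreted matricellular proteins, while Amotl2 and Lats2 encode proteins that restrain YAP and TAZ and so form a negative feedback. YAP and TAZ are mainly controlled as proteins, which RNA levels do not show.

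Promoter windows of these genes were searched for letters that TEAD factors are known to read in DNA. The windows came from RefSeq (GRCm38.p6, 250 bases before to 50 after a start site). The TEAD core GGAATG was sought on both strands, so that CATTCC marks the reverse strand. Windows were held for 7 of the 10 genes, 11 windows in all, and 6 genes had a match, which are Yap1, Wwtr1, Tead3, Ccn1, Amotl2 and Lats2. Tead2 had none in its window. Of all 32851 windows 14.7% held the core, and of 27025 genes 16.6% had it in at least 1 window. A match is a run of letters and not a shown binding site. The 30 bases around the matches are given in the direction of the gene, with the core in capitals:

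Ccn1, chr3:145650071-145650100, minus strand: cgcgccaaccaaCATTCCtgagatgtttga
Amotl2, chr9:102717727-102717756, plus strand: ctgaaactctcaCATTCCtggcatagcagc
Lats2, chr14:57746102-57746131, minus strand: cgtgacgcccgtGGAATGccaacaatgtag
Yap1, chr9:8004720-8004749, minus strand: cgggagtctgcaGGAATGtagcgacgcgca
Wwtr1, chr3:57576029-57576058, minus strand: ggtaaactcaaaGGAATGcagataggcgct
Tead3, chr17:28350701-28350730, minus strand: ccgggctCATTCCgtaCATTCCggccatcc

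Positions of the first base of a core are counted from the start site, with a minus sign before it. The core was at −103 in Ccn1, −65 in Amotl2, −141 in Yap1 and 4 in Lats2. Wwtr1 had 2 windows that shared 1 core, at −136 from one start and −170 from the other. The Tead3 stretch held 2 cores on the reverse strand, at −123 and −114 in its second window, and 2 further cores lay elsewhere in the windows of Tead3. The motif of AP-1 (TGANTCA) and the CArG box bound by SRF matched in none of the 11 windows. Neither therefore overlapped a TEAD core. They occurred in 7.81% and 1.63% of all windows. The 250 bases before the start of Ccn1, the target with the highest level, are shown whole (chr3:145649986-145650235, minus strand) to place its core:

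Ccn1: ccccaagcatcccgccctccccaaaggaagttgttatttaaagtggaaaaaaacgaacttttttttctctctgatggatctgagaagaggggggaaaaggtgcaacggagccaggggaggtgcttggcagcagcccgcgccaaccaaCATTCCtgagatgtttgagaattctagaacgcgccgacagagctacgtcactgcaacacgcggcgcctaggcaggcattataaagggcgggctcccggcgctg

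All 10 genes had higher mean levels at E18, and 4 of them passed the test: Ccn2, Yap1, Wwtr1 and Tead1. Levels are in TPM, a measure of transcript abundance corrected for gene length and library size. Fold changes are differences in log2(TPM + 1), where the added 1 makes the change of low genes smaller. Of the 10 genes, 9 passed the filter of at least 1 TPM in at least 3 libraries, and Tead4 did not. Limma called 4 of these 9 at adjusted p under 0.05, all higher at E18. Over all 17824 genes tested, 3.47% were called in either direction and 3.08% were called higher. The median log2 fold change was 1.89 over the 9 genes and 0.07 over all genes tested. In 8 of the 9 every E18 library exceeded every E16 library, which held for 18.4% of all genes tested.

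**Figure D1:**
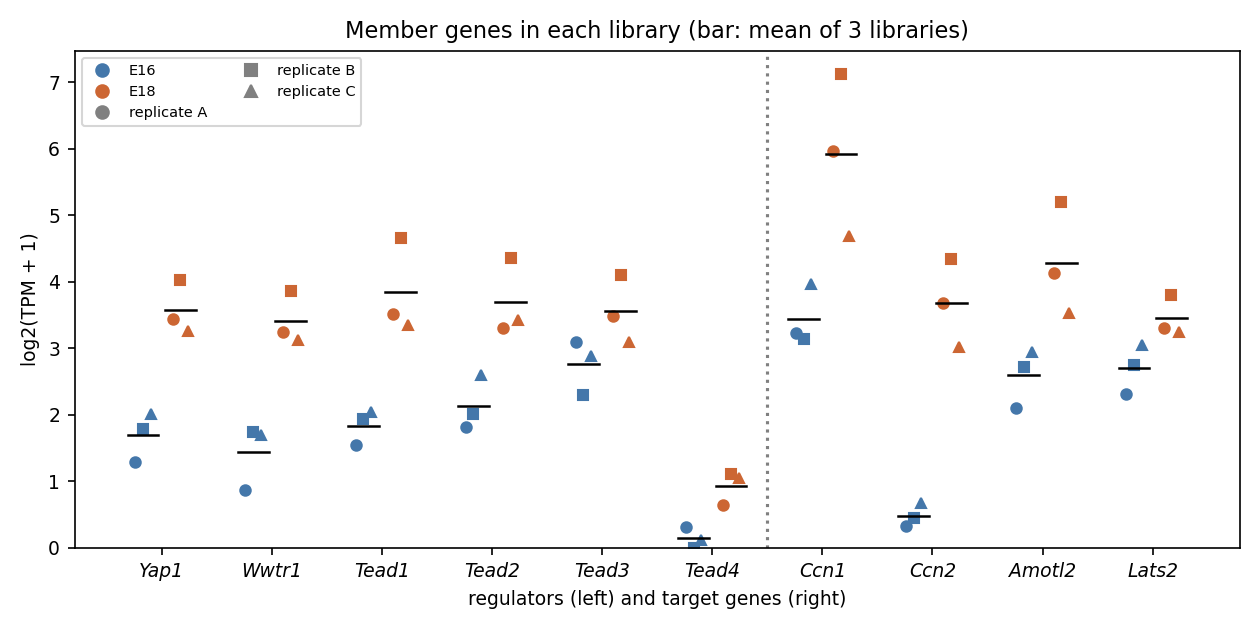
Levels of the 10 genes as log2(TPM + 1) in the E16 (blue) and E18 (orange) libraries, with replicates A, B and C as circles, squares and triangles and bars for the mean of 3 libraries. E18 replicate B is the highest E18 library for 10 of 10 genes, and of the 10 genes Tead3 alone has E16 and E18 values that overlap.

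The calls depended on single libraries. With any 1 of the E16 libraries left out, or with the A or B library of E18 left out, limma called 0 of the 9 genes, with 7 to 8 at an unadjusted p under 0.05. Over all 17824 genes 2765 to 3438 passed that unadjusted level in the same fits. With E18 replicate C left out it called 4, with Ccn1 (limma adjusted p = 0.0399) in and Wwtr1 (0.0521) out. Voom on recovered reads, with all 6 libraries, called 7 of the 9, beside 8.11% of all genes tested. All 9 fold changes stayed positive in each of these fits. A single long noncoding gene, Gm26917, took 198072 to 339083 TPM of each library, which lowers the TPM of all other genes.

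Markers of the sorted lineage moved with these genes. The summed TPM of 12 mesenchyme markers was 384, 463 and 759 at E16 against 2611, 5612 and 2131 at E18. Of the 12 markers, 11 were called higher, beside 3.08% of all genes tested. The remaining one was Tagln, the Sm22 gene itself, with 1.06 ± 0.408 TPM at E16 against 3.14 ± 0.258 TPM at E18 (SD, n = 3; limma adjusted p = 0.111). The same libraries stood out for the 10 genes: E18 replicate B was highest for 10 and E18 replicate C lowest for 8 of them, while E16 replicate C was highest for 7 and E16 replicate A lowest for 7. Over all 17824 genes tested, 3287 (18.4%) were higher in every E18 library than in every E16 library, and 1434 were lower. Summed hepatocyte markers ran from 2067 to 8738 TPM at E16 and from 354 to 920 TPM at E18, with 10 of 10 lower in every E18 library. Erythroid markers summed to 5333 to 7123 TPM at E16 and 10832 to 18794 TPM at E18, and 8 of 10 were higher in every E18 library. The 7 mesothelial markers summed to 18.6 to 21.3 TPM and 66 to 120 TPM, with each higher in every E18 library. The 7 endothelial markers summed to 27.5 to 41.0 TPM at E16 and 18.0 to 25.1 TPM at E18, mostly from Egfl7, with Cdh5 at or below 0.27 TPM in all 6 libraries. The 7 leukocyte markers summed to 43.0 to 57.5 TPM and 52.9 to 121 TPM, mostly from Cd68. Of 5 leukocyte markers tested limma called 3 higher, the myeloid genes Lyz2 (1.12 ± 0.72 to 6.86 ± 1.88 TPM), S100a9 (0 in each E16 library, 4.43 ± 3.11 TPM at E18) and Retnlg (0 in each E16 library, 3.13 ± 0.827 TPM at E18). The general leukocyte gene Ptprc was at or below 0.143 TPM in all 6 libraries, and Adgre1 is listed at 0. The 6 cholangiocyte markers summed to 9.89 to 19.7 TPM and 21.1 to 37.4 TPM. Of 3 tested, limma called Krt19 higher (5.07 ± 0.642 to 20.6 ± 7.99 TPM), while Krt7 (1.11 ± 0.19 and 4.25 ± 1.05 TPM) and Cdh1 (7.34 ± 5.02 and 0.692 ± 0.415 TPM) did not pass. Sox9 and Spp1 were under the filter and near the floor. Sox9 was at 0.0364 TPM or less at E16 and 0.0875 to 0.582 TPM at E18. Spp1 was at 0, 0.548 and 0 TPM at E16 and 0.55, 1.19 and 2.42 TPM at E18, so its days barely parted. Epcam is listed at 0 in 5 of the 6 libraries. The 5 megakaryocyte markers summed to 22.4 to 60.5 TPM and 32.6 to 106 TPM. The part of cell makeup in the results was not tested, and in these bulk libraries a change in the number of cells of a type and a change in RNA per cell cannot be told apart.

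The co-activators rose together. Yap1 (chromosome 9, 7931999 to 8004596, GRCm38) stood at 1.44, 2.44 and 3.04 TPM at E16 against 9.89, 15.3 and 8.62 TPM at E18. Every E18 library exceeded every E16 library, and the log2 fold change was 1.89 ± 0.33 (SE; limma adjusted p = 0.0375). These levels rest on 91 to 182 recovered reads per library at E16 and 404 to 648 at E18.

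Wwtr1 (chromosome 3, 57455649 to 57575910) had 0.827, 2.36 and 2.23 TPM at E16 against 8.53, 13.5 and 7.69 TPM at E18. The days did not overlap, with E16 replicate A the lowest library at 27 reads. The log2 fold change was 1.97 ± 0.37 (SE; limma adjusted p = 0.0412). Of 18 alternative settings, including libraries left out, the call was lost in 12 for Wwtr1 and in 9 for Yap1. With quantile normalization limma adjusted p was 0.0529 for Yap1 and 0.0623 for Wwtr1. Per length the 2 co-activators were close in level on both days. Yap1 made up 50.8% to 63.5% of their summed TPM at E16 and 52.9% to 53.7% at E18, so the E18 range lies inside the E16 range. Their summed level went from 4.11 ± 1.61 to 21.17 ± 6.67 TPM (SD, n = 3).

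Among the DNA-binding partners, Tead1 passed the test, and the other tested genes, Tead2 and Tead3, had higher means at E18 without passing. Tead1 (chromosome 7, 112679318 to 112906807) was at 1.91, 2.83 and 3.11 TPM at E16 against 10.5, 24.2 and 9.24 TPM at E18. The ranges did not overlap, and E18 replicate B stood above the other two E18 libraries. The log2 fold change was 2.01 ± 0.39 (SE; limma adjusted p = 0.0447), and the call was lost in 10 of the 18 alternatives. Tead2 (chromosome 7, 45215753 to 45233644) had 2.51, 3.02 and 5.03 TPM at E16 and 8.94, 19.6 and 9.75 TPM at E18. All E18 values were above all E16 values, yet the gene did not pass (log2 fold change 1.57 ± 0.37, limma adjusted p = 0.0659). Tead2 passed in 2 of the 18 alternatives, with array weights (limma adjusted p = 0.0376) and with voom (voom adjusted p = 0.0235).

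Tead3 (chromosome 17, 28331671 to 28350817) was measured at 7.57, 3.90 and 6.37 TPM at E16 and at 10.2, 16.2 and 7.52 TPM at E18. E18 replicate C fell just under E16 replicate A, so the days overlapped, and the gene did not pass (log2 fold change 0.80 ± 0.35, limma adjusted p = 0.25). Tead4 (chromosome 6, 128224288 to 128300823) was near the limit of detection, with 0.244, 0 and 0.0858 TPM at E16 from 6, 0 and 2 reads. At E18 it had 0.567, 1.16 and 1.06 TPM from 9, 19 and 21 reads, which is above every E16 library but under the filter, so it has no test here.

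The makeup of the TEAD family differed between the days. A share of the summed Tead level within a library does not depend on how libraries are scaled. Tead3 held 61.9%, 40% and 43.7% of the summed Tead TPM at E16 against 33.8%, 26.5% and 27.3% at E18. It was the most abundant Tead gene in all 3 E16 libraries. Tead1 held 15.6%, 29% and 21.3% at E16 and 34.7%, 39.6% and 33.5% at E18. For both genes the ranges of the 2 days did not overlap, in opposite directions. Tead2 ranged from 20.5% to 34.5% at E16 and from 29.6% to 35.4% at E18, which overlap, and Tead4 held at most 3.8%. These shares are described with no test.

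**Figure D2:**
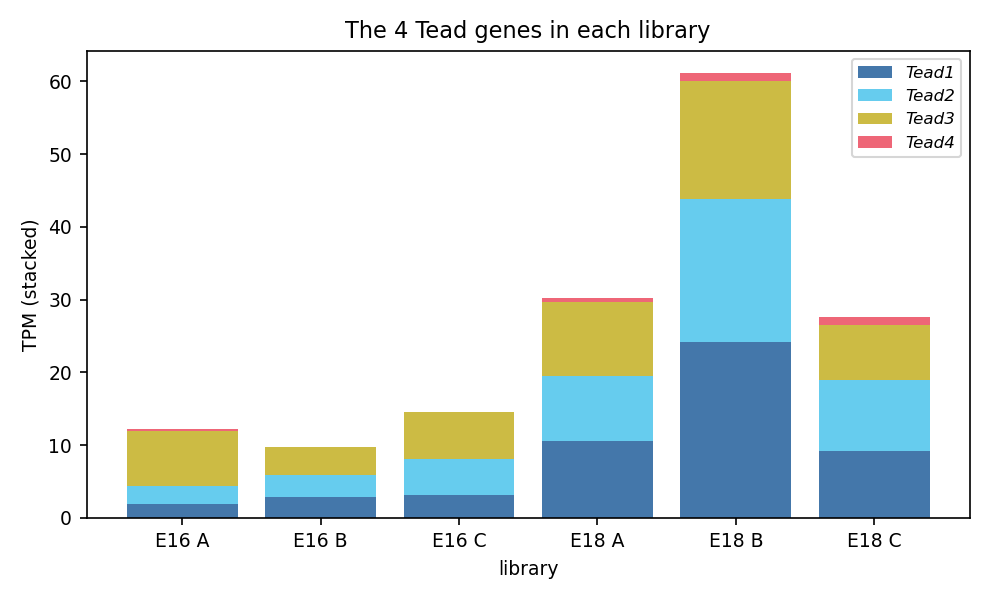
TPM of Tead1, Tead2, Tead3 and Tead4 stacked for each library, E16 on the left and E18 on the right. The summed level is 9.7 to 14.6 TPM at E16 and 27.6 to 61.2 TPM at E18, and the Tead3 part shrinks from at least 40% to at most 33.8% of the stack.

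Of the 4 target genes, Ccn2 was the one that passed. Its log2 fold change was above that of Ccn1 at pseudocounts of 1 and 0.1 and below it at a pseudocount of 5 (1.66 against 2.13). Ccn2 (chromosome 10, 24595442 to 24598683), also known as connective tissue growth factor, stood at 0.256, 0.368 and 0.594 TPM at E16. At E18 it stood at 11.8, 19.3 and 7.15 TPM. The E16 values rest on 5, 7 and 11 reads and the E18 values on 149, 252 and 113 reads. The ratio of means was 31.4, while the log2 fold change with a pseudocount of 1 was 3.20 ± 0.39 (SE; limma adjusted p = 0.0273) and with a pseudocount of 0.1 was 4.61 ± 0.54. Its call was lost in 8 of the 18 alternatives. Of its exon length, 23.2% lies under Gm15270 on the other strand, which is listed at 0 to 0.746 TPM.

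Ccn1 (chromosome 3, 145646976 to 145649981), the gene of the cysteine-rich protein CYR61, was the most abundant of the 10 on both days. Its levels were 8.34, 7.83 and 14.6 TPM at E16 and 61.8, 138 and 24.7 TPM at E18. The days did not overlap, but the E18 libraries differed widely among themselves, and the gene did not pass (log2 fold change 2.48 ± 0.58, limma adjusted p = 0.0621). With E18 replicate C left out the log2 fold change was 3.10 ± 0.41 and passed (limma adjusted p = 0.0399), whereas with E18 replicate B left out it was 1.88 (limma adjusted p = 0.129) and without both B libraries 1.73 (0.213). Ccn1 passed in 4 of the 18 alternatives. The others were voom (voom adjusted p = 0.0458), array weights (limma adjusted p = 0.00792) and rescaling without Gm26917, mitochondrial and small RNA genes (limma adjusted p = 0.0407). Ccn1 exceeded Ccn2 by 32.6, 21.3 and 24.6 times in the E16 libraries and by 5.2, 7.2 and 3.4 times in the E18 libraries, so the ratio was lower in each E18 library.

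The feedback genes were already present at E16. Amotl2 (chromosome 9, 102716672 to 102733418), an angiomotin family scaffold that binds YAP, had 3.31, 5.60 and 6.73 TPM at E16 and 16.5, 35.7 and 10.6 TPM at E18. All E18 libraries were above all E16 libraries, and the test was not passed (log2 fold change 1.69 ± 0.45, limma adjusted p = 0.0832). Amotl2 passed in 2 of the 18 alternatives, with array weights (limma adjusted p = 0.0165) and with voom (voom adjusted p = 0.038). Lats2 (chromosome 14, 57689662 to 57758388), a kinase that phosphorylates YAP and TAZ, had 3.99, 5.70 and 7.29 TPM at E16 and 8.94, 13.0 and 8.49 TPM at E18. The ranges were separate but close, and the gene did not pass (log2 fold change 0.75 ± 0.29, limma adjusted p = 0.202). The gene model Gm49361, listed at 0 in all 6 libraries, shares 42.4% of the exon length of Lats2 on the same strand, and how shared reads were counted is not given in the sources used here, so the level of Lats2 is uncertain.

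**Figure D3:**
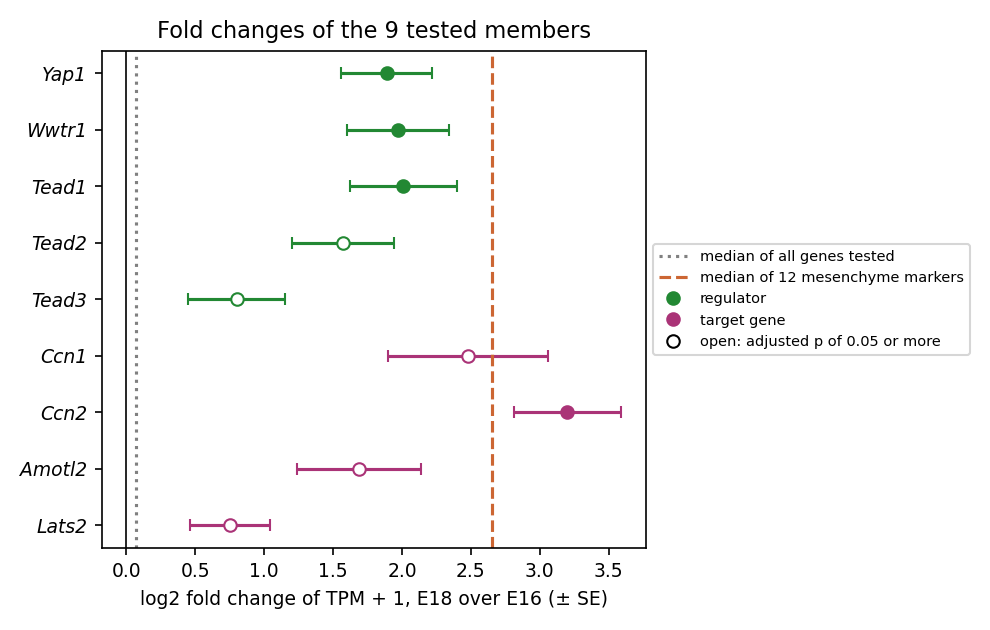
Log2 fold change of TPM + 1 from E16 to E18 with its SE for the 9 tested genes, regulators in green and targets in purple, filled where the adjusted p is under 0.05. The dashed line is the median of the 12 mesenchyme markers at 2.65 and the dotted line that of all genes tested at 0.07, and Ccn2 at 3.20 lies to the right of the dashed line.

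The order of the levels changed between the days. At E16 it ran Ccn1, Tead3, Lats2, Amotl2, Tead2, Tead1, Yap1, Wwtr1, Ccn2 and Tead4. The ranges of Tead3, Lats2, Amotl2 and Tead2 overlapped, as did those of Tead2, Tead1, Yap1 and Wwtr1 from each to the next. Ccn1 at 7.83 TPM or more, Ccn2 at 0.594 TPM or less and Tead4 at 0.244 TPM or less lay apart from their neighbours. At E18 Ccn1 and Amotl2 led, with ranges that overlapped each other, and Tead4 was last. The 7 genes between them had means from 9.89 to 14.7 TPM with overlapping ranges, and Ccn2 was now among these 7.

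Set against each other, the regulators and the targets both stood higher at E18, and the gap between them was not separated by day. The mean log2(TPM + 1) of the 6 regulators was 1.49, 1.63 and 1.89 at E16 against 2.95, 3.69 and 2.88 at E18. For the 4 targets it was 1.99, 2.27 and 2.66 at E16 and 4.27, 5.12 and 3.62 at E18. The targets exceeded the regulators by 0.51, 0.64 and 0.77 at E16 and by 1.33, 1.43 and 0.74 at E18. E18 replicate C thus fell within the E16 range. Within the targets the log2 fold changes ran from 0.75 ± 0.29 for Lats2 to 3.20 ± 0.39 for Ccn2, and within the tested regulators from 0.80 ± 0.35 for Tead3 to 2.01 ± 0.39 for Tead1.

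Against the mesenchyme markers most of the 10 genes were lower at E18, although their own mean levels were higher. In each library the mean log2(TPM + 1) of the 12 markers was subtracted from that of a gene. The marker mean itself went from 3.63 at E16 to 6.26 at E18, so a gene that rose less came out lower. The median log2 fold change over all genes tested was 0.07, so the typical gene also came out lower. The share of all genes that did so was not counted. Among the 10 genes, the difference was lower in every E18 library than in every E16 library for 8, higher for Ccn2 and overlapping for Ccn1. Lats2 went from −0.93 to −2.81 and Tead3 from −0.87 to −2.70, while Yap1 went from −1.94 to −2.68 (means of 3 libraries). Ccn2 went from −3.15 to −2.58. With a pseudocount of 0.1 the same comparison gave 6 lower, 1 higher and 3 overlapping, as Wwtr1 and Tead4 joined Ccn1. The value of Ccn2 was again the one that was higher. Its shift depended on the pseudocount, at 0.57 with 1 and 1.72 with 0.1, and its E16 values rest on 5 to 11 reads. A pseudocount of 5, where the log2 fold change of Ccn2 itself was 1.66, was not used here. Whether Ccn2 stays above the markers there is therefore not shown. These are descriptions with no test.

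**Figure D4:**
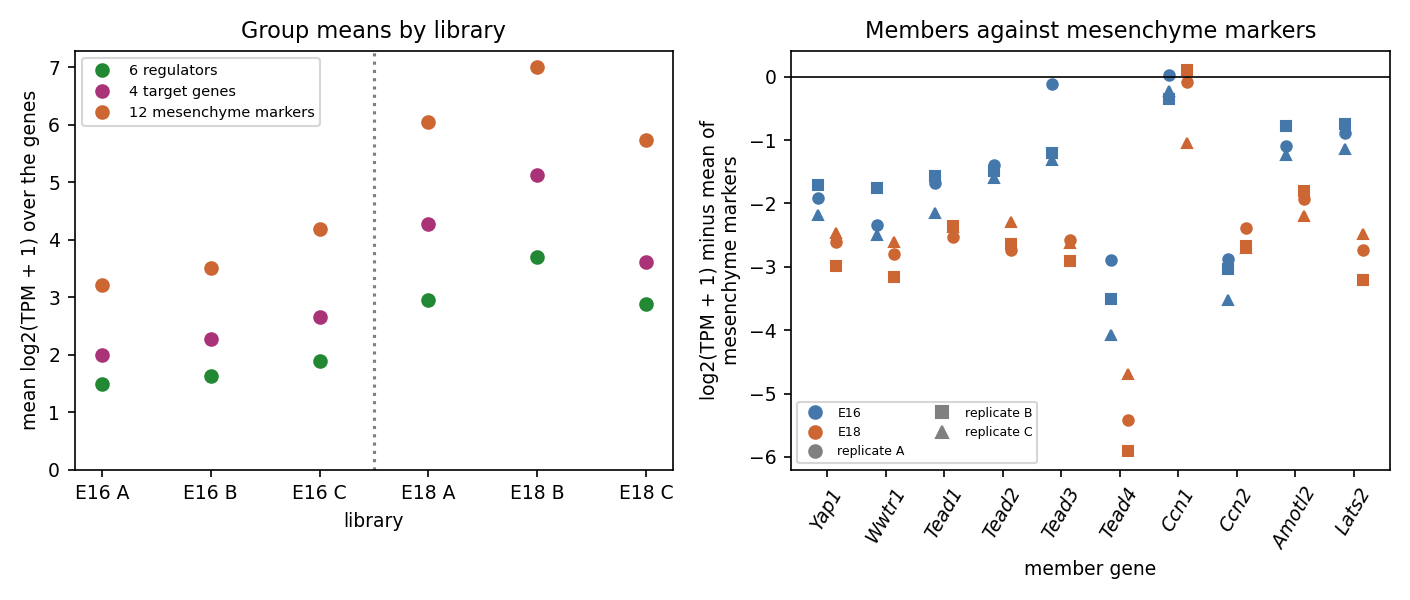
Left, the mean log2(TPM + 1) of the 6 regulators, 4 target genes and 12 mesenchyme markers in each library. Right, log2(TPM + 1) of each gene minus the mean of the mesenchyme markers, for E16 (blue) and E18 (orange), where 8 genes lie lower at E18, Ccn1 overlaps and Ccn2 lies higher.

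Upstream of YAP and TAZ, limma called 1 of 24 genes higher and 0 lower, a share near the 3.47% called over all genes. Voom called 9 of the 24, beside 8.11% of all genes. Their median log2 fold change was 0.52. Of the 24, 13 were higher in every E18 library than in every E16 library and 1 was lower, where 18.4% of all genes tested were higher. The kinase genes Stk3, Stk4 and Lats1 had overlapping values on the 2 days. Pairs of means are given with E16 first. Fat4, a giant cadherin, rose from 4.26 ± 2.80 to 32.2 ± 15.9 TPM (n = 3, SD; limma adjusted p = 0.0353). Its ligand Dchs1 was at 2.57 ± 1.32 and 13.8 ± 7.51 TPM and Fat1 at 5.5 ± 2.57 and 27.3 ± 16.1 TPM, neither passing (limma adjusted p = 0.054 and 0.0545). The angiomotin Amotl1 had 3.42 ± 1.49 against 18.4 ± 9.71 TPM (limma adjusted p = 0.0507). By contrast Amot, its relative, was at 7.77 ± 0.711 and 8.33 ± 1.63 TPM, with overlapping days. The MST kinases were at 9.82 ± 1.15 and 10.8 ± 1.86 TPM for Stk3 and 54.9 ± 9.66 and 44.7 ± 7.30 TPM for Stk4. Lats1, the paralog of Lats2, was at 41.3 ± 7.45 and 46.7 ± 3.11 TPM, and Sav1, the MST scaffold, at 27.5 ± 4.12 and 28.3 ± 2.91 TPM. For Stk3, Stk4, Lats1 and Sav1 the days overlapped and limma adjusted p was 0.447 or more. Lats1 was higher than Lats2 in level per length in all 6 libraries. Nf2, encoding merlin, had 47.5 ± 2.42 and 42.3 ± 4.59 TPM (limma adjusted p = 0.555).

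Of 9 listed cofactors that bind TEAD or act with YAP, 6 were tested. Limma called 0 of them, with 1, Vgll3, at an unadjusted p under 0.05 and called by voom. The median log2 fold change was 0.05, close to that of all genes. Vgll4, a TEAD binder that competes with YAP, had 14.7 ± 1.35 and 13.7 ± 3.42 TPM. Vgll3 was at 0.103, 0 and 0.196 TPM at E16 and 1.34, 4.25 and 1.12 TPM at E18 (limma adjusted p = 0.107). Vgll1 and Vgll2 are listed at 0 in all libraries. The coactivator gene Ncoa3 (8.92 ± 1.85 and 11.3 ± 2.28 TPM) had overlapping days.

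In a wider list of known YAP and TAZ targets some genes rose and others did not pass. Of 18 further targets 14 were tested, and limma called 6 higher and 0 lower, with a median log2 fold change of 1.54. Over all genes tested 3.08% were called higher, and the median was 0.07. In 10 of the 14 every E18 library exceeded every E16 library, which held for 18.4% of all genes tested, and in 1 every E18 library was lower. Ccdc80, a matrix protein, rose from 7.65 ± 3.71 to 96.7 ± 48.6 TPM (n = 3, SD; limma adjusted p = 0.0273). The receptor tyrosine kinase Axl rose from 6.19 ± 3.43 to 41.4 ± 19.6 TPM and Igfbp3, an IGF-binding protein, from 20.8 ± 7.32 to 119 ± 72.8 TPM (limma adjusted p = 0.0362 and 0.0396). Rbms3, Tgfb2 and Myof made up the rest, with log2 fold changes of 2.54 ± 0.49, 1.90 ± 0.37 and 1.79 ± 0.36. The other tested targets did not pass. Arhgef17, Fjx1, Ptpn14, Crim1 and Nt5e had higher means at E18, with log2 fold changes of 2.12, 1.29, 1.12, 0.42 and 0.17. For Arhgef17 limma adjusted p was 0.0511, and voom called Arhgef17 and Ptpn14. Asap1, Gadd45a and Dock5 had lower means at E18. Asap1 was at 121 ± 7.91 and 116 ± 2.77 TPM and Gadd45a at 12.5 ± 3.45 and 11.8 ± 2.14 TPM, both with overlapping days. Dock5 had lower values in every E18 library (9.44 ± 0.967 and 6.20 ± 0.853 TPM) without passing (limma adjusted p = 0.232). Ankrd1, a widely used YAP reporter gene, was at 0.083 TPM or less at E16 against 1.41, 4.46 and 0 TPM at E18, under the filter.

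Ccn1 and Ccn2 also belong to the CCN family and answer to signals other than YAP. Of 6 CCN genes 5 were tested and 2 were called, Ccn2 and Ccn3, beside 3.47% of all genes tested. Ccn3 was at 0, 0.0525 and 0.0538 TPM at E16 and 6.95, 19.0 and 8.52 TPM at E18 (limma adjusted p = 0.0273). Ccn4 had 2.13 ± 1.39 and 9.38 ± 6.76 TPM and Ccn6 2.82 ± 0.147 and 2.30 ± 1.81 TPM, neither passing (limma adjusted p = 0.149 and 0.719), and Ccn5 was seen in E18 replicate B alone. Immediate early genes are a class that takes in Ccn1 and that responds to growth factors and to cell dissociation. Of 18 listed, limma called 7 higher and 0 lower, 16 were higher in every E18 library (Ier2 and Dusp1 overlapped), and the median log2 fold change was 1.86. Over all genes tested 3.08% were called higher and 18.4% were higher in every E18 library. The called genes were Nr4a1, Klf4, Klf2, Atf3, Fosl2, Btg2 and Ier3, with Klf2 going from 2.95 ± 1.06 to 31.1 ± 22.5 TPM and Ier3 from 12 ± 0.528 to 36.4 ± 12.5 TPM. The summed TPM of the 18 was 462 to 738 at E16 against 1881, 3267 and 1115 at E18. The order of the E18 libraries was that of Ccn1 and Ccn2, and also that of the mesenchyme markers. The part of these genes in the level of Ccn1 and Ccn2 was not tested.

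Of the TGF-beta genes, which include known inducers of Ccn2, 2 of 9 were called higher and 0 lower, beside 3.08% of all genes called higher. The TGF-beta list had a median log2 fold change of 1.22. Of its 9 genes, 6 were higher in every E18 library and 1 was lower, beside 18.4% of all genes tested that were higher. Tgfbi, a secreted matrix protein, rose by 2.67 ± 0.45 on the log2 scale. Tgfb3 had 4.98 ± 3.16 TPM at E16 against 20.8 ± 7.25 TPM at E18, and the receptor gene Tgfbr2 4.60 ± 1.66 against 15.4 ± 6.64 TPM, without passing (limma adjusted p = 0.052 and 0.0649). For SRF and its co-activators, which act in part through the same targets as YAP, 3 of 12 genes were called higher and 0 lower. This compares with 3.08% of all genes tested called higher, and the median log2 fold change of the SRF list was 0.60. In 9 of the 12 every E18 library was higher, beside 18.4% of all genes tested, and in 1 every E18 library was lower. The called genes were the muscle actins Actg2 and Acta2 and the co-activator Myocd. Cnn1, encoding calponin, had 0.457 ± 0.0543 against 5.00 ± 3.69 TPM (limma adjusted p = 0.076). Srf itself was lower in every E18 library at 54.1 ± 7.89 and 41.7 ± 3.10 TPM without passing (limma adjusted p = 0.224). Mrtfa had 7.26 ± 0.23 against 11.8 ± 3.26 TPM (limma adjusted p = 0.213). Of 12 genes of the cytoskeleton and of force sensing 1 was called, beside 3.47% of all genes. This was the actin cross-linker Flna, which rose from 76.8 ± 12.8 to 216 ± 87.8 TPM (limma adjusted p = 0.0444). The list had a median log2 fold change of 0.24. The integrin gene Itgb5, the focal adhesion gene Zyx and the lamin gene Lmna had log2 fold changes of 1.46 ± 0.37, 1.38 ± 0.35 and 0.55 ± 0.16 and did not pass (limma adjusted p = 0.0741, 0.0754 and 0.107). Rhoa (60.2 ± 13.5 and 60.9 ± 2.04 TPM) and Ptk2, encoding focal adhesion kinase (12 ± 0.787 and 11.9 ± 0.514 TPM), had overlapping days. Several genes sit in more than 1 of these lists.

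**Figure D5:**
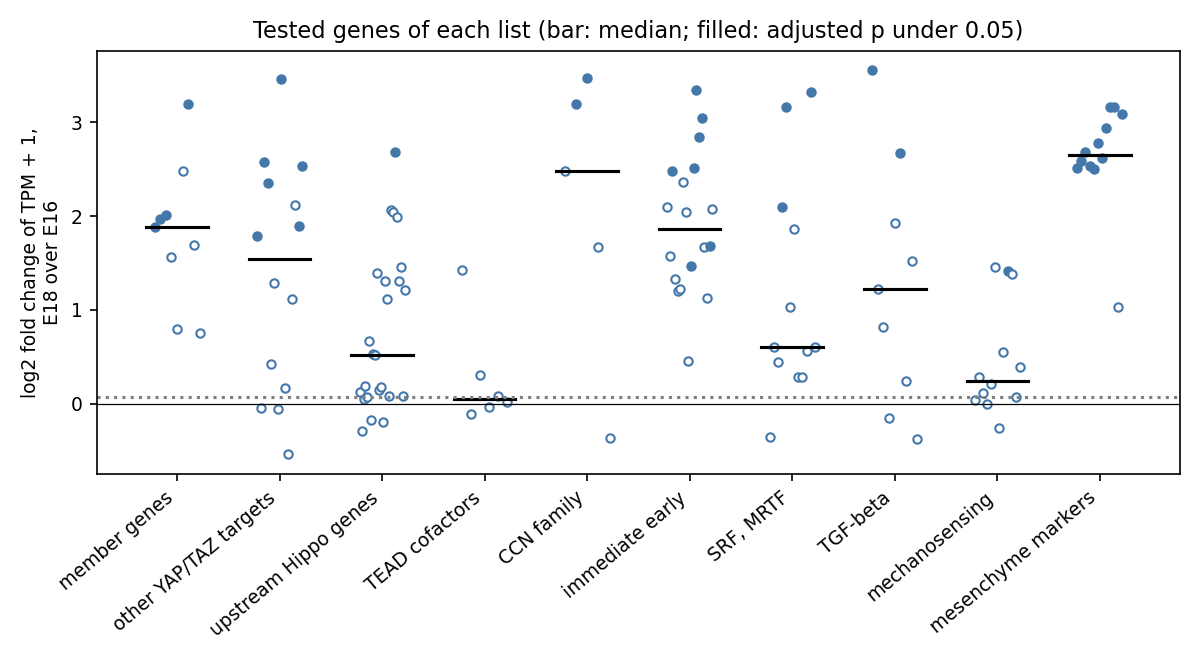
Log2 fold changes of TPM + 1 from E16 to E18 for each tested gene of the lists, filled where the adjusted p is under 0.05, with a bar at each list's median and a dotted line at the median of all genes tested. The medians run from 0.05 for TEAD cofactors and 0.52 for upstream Hippo genes to 1.89 for the member genes and 2.65 for mesenchyme markers.

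The genes whose pattern was most like that of each member were found by Pearson correlation of log2(TPM + 1) over the 6 libraries, among 8033 named genes at 10 TPM or more on either day. For Yap1 they were Ltbp3, Bgn and Col15a1, each at r = 0.999, and for Wwtr1 they were Tnks1bp1, Tgfbi and Cygb, at r = 0.997 to 0.998. Those of Ccn2 were Mxra8, Msrb3 and Tnxb at 0.998 to 0.999, and those of Ccn1 were Sod3, Mfap2 and Pygm, each at r = 0.996. Amotl2 was nearest to Pkdcc, Fkbp9 and Id2 at r = 0.998 to 0.999, and Lats2 to Dapk3, Hist1h1c and Dpysl2 at r = 0.995 to 0.999. Among the 10 genes themselves, Yap1 and Wwtr1 were the most alike pair (r = 0.994) and Wwtr1 and Tead3 the least (r = 0.705). These values are a description, since all genes share the same 6 libraries and the same split between days.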

How the data were processed

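The authors deposited a table of TPM for 54532 genes in 6 libraries made with a stranded kit, per the labels' protocols. The submitters' processing notes name mm10, FastQC 0.11.7, Bowtie, HISAT2 2.1.0 and HTSeq 0.5.4p3, without role or order. Annotation, strand setting and TPM formula are not stated there. Symbols, positions and exon lengths were taken from GENCODE M21 (GRCm38, the assembly of mm10).

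Reads were recovered as TPM times exon length, and 96.8% to 97.1% of values were whole within 0.05. Totals were 21130198 to 22626885 reads at E16 against 14587544 to 18281942 at E18. Replicates differed well beyond counting noise (chi-square per degree of freedom 20.9 to 107.4), so none was merged.

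Genes at 1 TPM or more in at least 3 libraries (17824) were tested on log2(TPM + 1) with limma 3.58.1 (R 4.3.3), using an intensity trend and Benjamini-Hochberg adjustment of 2-sided p-values. The code was tested on simulated data. Alternatives were pseudocounts of 0.1 and 5, other filters and scalings, no trend, array weights, a replicate block, voom and leaving out each library. Leaving out both B libraries was added after seeing the data. The members and lists were chosen with earlier results of these data known. Named genes were the members, each list's called genes, up to 4 per list with the smallest p, and the 3 most alike genes of 6 members. Stk3, Stk4, Lats1, Sav1, Nf2, Amot, Asap1, Gadd45a, Dock5, Ankrd1, Vgll1, Vgll2, Ccn5, Ccn6, Srf, Mrtfa, Rhoa, Ptk2 and single cell type markers were named after their values were seen. So were Arhgef17, Fjx1, Ptpn14, Crim1 and Nt5e. Of the genes this rule names, 2 are not reported here.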

Additional observations from a re-analysis of the deposited data

How the results depend on the processing

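The 9 log2 fold changes of the tested members were positive in all 162 combinations of gene and alternative, while the calls of Yap1, Wwtr1, Tead1 and Ccn2 were lost in 9, 12, 10 and 8 of 18 alternatives. Of the tested members not called, Ccn1 gained a call in 4 alternatives, Tead2 in 2, Amotl2 in 2, and Tead3 and Lats2 in 0. The number of members called, 4, was 7 with array weights and 7 with voom, 1 with quantile normalization and 0 without a filter on low values. It was 5 after rescaling without Gm26917, mitochondrial and small RNA genes. The array weights were 3.756 for E16 replicate C and 3.623 for E18 replicate A, against 0.484 to 0.605 for the other libraries. Calls with array weights thus lean largely on 1 library per day. Without both B libraries 0 members and 0 genes were called, with 7 members and 2846 genes at an unadjusted p under 0.05. Leaving out 1 library gave 0 to 4 members and 0 to 664 genes. The number of genes called, 618, was 347 at a pseudocount of 5, 0 without a filter, 406 at a minimum of 5 TPM, 399 with quantile normalization, 1079 after rescaling without Gm26917, mitochondrial and small RNA genes, 4316 with array weights and 1446 with voom. The share of calls that were higher was 88.8% and fell to 78.7% with quantile normalization, 76.9% with that rescaling and 64.8% with array weights. With quantile normalization the median over all genes tested moved from 0.07 to −0.08. The cause of these changes was not tested.

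No pairing of the libraries by letter was seen: deviations from the day's mean correlated at 0.10, −0.14 and −0.12 for letters A, B and C across genes. Libraries of different letters gave −0.15 to 0.22. The labels do not say if the letters pair, and these values cannot exclude it. With the letter as a replicate block limma called 0 genes and 0 members, with 3195 genes and 7 members at an unadjusted p under 0.05. Depth limits Tead4, at 0 to 6 reads per E16 library, and Ccn2, at 5 to 11.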
